A study of Mus musculus with 6 samples.

Results

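The cathepsins and cystatins described here are 9 genes taken by symbol from a table of 22838 genes of mouse bone marrow. They are the lysosomal cysteine cathepsins B, C, H, L, S and Z (Ctsb, Ctsc, Ctsh, Ctsl, Ctss and Ctsz) and the inhibitors cystatin B, C and F (Cstb, Cst3 and Cst7). They were chosen by family membership and without a cutoff on measured values, but earlier results of these data were known. They are part of the family, and other cathepsins such as Ctsk and Ctsf are described further below. RNA had been sequenced from the marrow of the tibia and femur of 3 Cbx2-/- mice and 3 wild-type mice, all 3 weeks old and of the strain given as 129/C57BL/6. The Cbx2 protein belongs to the Polycomb group, whose complexes keep developmental genes silent. The labels describe neither the allele nor the sex, and the mean body weight was 4.0 g for the Cbx2-/- group and 12.3 g for the wild-type group. Per its title, the study asked about bone-forming and fat cell differentiation in long bones.

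Cysteine cathepsins are proteases of the lysosome, made as inactive proenzymes and matured in its acid interior. Cystatins bind their active site cleft tightly but reversibly. Cystatin C is secreted by most cells, cystatin B stays in the cytosol and nucleus, and cystatin F is directed into endosomes and lysosomes of blood cells. In marrow these enzymes are known from macrophages, which digest red cell nuclei and dying cells, from granulocyte precursors, whose granule proteases need cathepsin C for activation, and from antigen-presenting cells, where cathepsin S trims the class II invariant chain.

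Promoter sequence, in RefSeq's table for GRCm38.p6, could be matched for 6 of the 9 genes (Ctsc, Ctsl, Ctss, Ctsz, Cst3 and Cst7). Sequence is printed for Ctsl (30 bases around the E-box) and Cst7 (250 bases before the start), because these genes passed the test between genotypes. Stretches of 50 bases are printed for Ctss and Ctsc, because each holds the same motif of 8 letters. Capitals mark CACGTG (the E-box) in Ctsl, GGAAGT (the ETS core) in Cst7, and GAGGAAGT (the PU.1-type motif, read on the opposite strand) in Ctss and Ctsc. The first capitals in Ctss mark GAAANNGAA (the interferon response core).
Ctsl, chr13:64370739-64370768, minus strand: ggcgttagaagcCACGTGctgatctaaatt
Cst7, chr2:150570165-150570414, plus strand: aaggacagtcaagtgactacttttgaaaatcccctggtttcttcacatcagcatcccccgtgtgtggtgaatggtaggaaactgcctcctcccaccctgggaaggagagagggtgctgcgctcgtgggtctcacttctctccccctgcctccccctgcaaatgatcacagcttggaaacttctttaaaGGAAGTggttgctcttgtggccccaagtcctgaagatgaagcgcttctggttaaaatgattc
Ctss, chr3:95526746-95526795, plus strand: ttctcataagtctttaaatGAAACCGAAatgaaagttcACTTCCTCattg
Ctsc, chr7:88277915-88277964, plus strand: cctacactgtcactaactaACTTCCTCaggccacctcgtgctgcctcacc

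Motifs were searched on both strands in windows of 250 bases before and 50 bases from the start that RefSeq's table uses. The E-box, the core of the site read by the lysosomal regulator TFEB and its relatives, stood 236 bases before that start of Ctsl and in 7.24% of 27025 promoters of the same length. The sources place the Ctsl start differently: the outermost GENCODE start lies 370 bases before RefSeq's, so the printed bases are inside the GENCODE locus, and the deposited table's 5′ end lies 214 bases after RefSeq's. For Cst3 the GENCODE start lies 180 bases before RefSeq's, and for Cst7, Ctss, Ctsc and Ctsz both are the same. Its longer form TCACGTGA, held by 1.01% of promoters, was in none of the 6 windows. The PU.1-type motif, named for a factor of myeloid cells, was in the Ctss and Ctsc windows and in 3.28% of all promoters, and its inner part GGAAGT was also in the Cst7 window and in 24.1% of all. GAAANNGAA was in the Ctss window and in 8.57% of all, and it did not overlap the PU.1-type motif. GGGCGG (the GC box) was in the windows of Cst3, Ctsc, Ctss and Ctsz and in 35.9% of all. These matches describe letters, not bound sites.

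The libraries differed beyond their genotype. Summed FPKM (fragments scaled by transcript length and by mapped fragments, the deposited unit) ranged from 599601 to 741192. Read totals were not used here. Summed levels of 9 skeletal muscle markers were 417, 468 and 13.8 FPKM in Cbx2-/- replicates 1, 2 and 3, against 23.3 to 34.9 FPKM in wild-type libraries. The Y-linked genes Ddx3y, Eif2s3y, Kdm5d and Uty had a combined level of 31.1 FPKM in Cbx2-/- replicate 1 and 31.1 FPKM in wild-type replicate 1, and of at most 0.087 FPKM in the other libraries. Of 12006 genes that reached 1 FPKM in 3 or more libraries, 1057 (8.8%) were higher and 998 (8.31%) lower in Cbx2-/- marrow, by limma on log2(FPKM + 1) with a Benjamini-Hochberg adjusted p under 0.05 over all tested genes.

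All 9 cathepsin and cystatin genes were expressed and were tested. Ctsl and Cst7 rose in Cbx2-/- marrow, none fell, and 7 did not pass (adjusted p of 0.0811 to 0.87). That is 2 of 9 against a background of 8.8% higher genes. The Cbx2-/- libraries lay wholly above the wild-type libraries for Ctsl, Cst7 and Cst3, against 21.4% of all tested genes, and wholly below for Ctsb, against 18.2%. The median difference of the 9 genes was 0.28 (log2), where that of all tested genes was 0.02. In a bulk tissue, more cells of a type and more RNA per cell cannot be told apart.

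**Figure D1:**
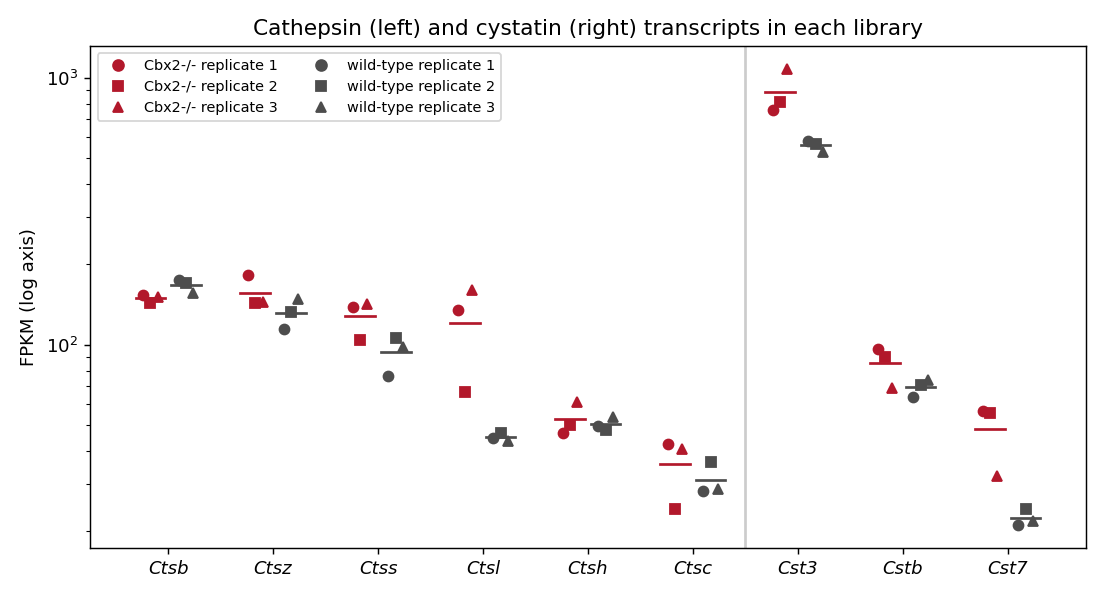
FPKM of each gene (log axis) in each library, with Cbx2-/- libraries in red and wild-type libraries in grey, a symbol for each replicate number and a line at the mean of 3 libraries. Cst3 stands above the rest in every library, and the red symbols spread furthest for Ctsl, from 66.3 to 160 FPKM, while the wild-type symbols lie between 43.5 and 46.8 FPKM.

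Ctsl (chromosome 13, 64363214 to 64370306 in the deposited table, mm10) encodes cathepsin L, an endopeptidase of broad specificity. Its level was 134, 66.3 and 160 FPKM in Cbx2-/- replicates 1, 2 and 3, against 44.5, 46.8 and 43.5 FPKM in wild-type replicates 1, 2 and 3. The groups did not overlap, and Cbx2-/- replicate 2 lay closest to the wild-type values. The means were 120 ± 48.3 FPKM and 44.9 ± 1.69 FPKM (SD, n = 3 each), 2.67-fold higher in Cbx2-/- marrow. The log2 difference was 1.31 ± 0.31 (SE, 95% interval 0.59 to 2.02, limma adjusted p = 0.0252). The exact permutation test over the 6 libraries gave p = 0.1, the smallest that 3 against 3 allows. The locus is overlapped by the antisense gene Gm47123 and the processed pseudogene Gm49230, so its value is uncertain to that extent. Leaving out Cbx2-/- replicate 1 or any wild-type replicate ended the call (limma adjusted p of 0.0829 to 0.0966) while without Cbx2-/- replicate 2 the difference was 1.68 (adjusted p = 0.00217). With all libraries but no filter on low values, the adjusted p was 0.0536.

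Cst7 (chromosome 2, 150570415 to 150578944) encodes cystatin F, which reaches lysosomes and there can inhibit cathepsin C. Its level was 56.6, 55.6 and 32.3 FPKM in Cbx2-/- replicates 1, 2 and 3, against 21.1, 24.2 and 21.8 FPKM in the wild-type replicates. The groups did not overlap, and here replicate 3 was the Cbx2-/- library closest to wild-type. The means were 48.1 ± 13.8 and 22.4 ± 1.65 FPKM, 2.15-fold higher in Cbx2-/- marrow, a difference of 1.03 ± 0.23 (log2, SE, limma adjusted p = 0.0203). Leaving out each of the same 4 libraries as for Ctsl also ended this call (limma adjusted p of 0.0658 to 0.0873), and Cbx2-/- replicate 3 alone, the library without raised muscle transcripts, differed from the wild-type libraries by 0.51, a value of 1 library with no test of the genotype.

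Ctsl and Cst7 therefore differed in which Cbx2-/- library was high. The ratio of Ctsl to Cst7 was 2.38, 1.19 and 4.95 in the Cbx2-/- libraries and 2.11, 1.93 and 2 in the wild-type libraries. Without replicate 1 of both genotypes, the pair with Y-linked transcripts, the Ctsl difference was 1.17 and the Cst7 difference 0.85, and neither passed (adjusted p of 0.244 and 0.242, with 42 genes higher among all tested).

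Cst3 (chromosome 2, 148871732 to 148875468), the gene of the secreted inhibitor cystatin C, was the most abundant of the 9 in every library. Its level was 761, 809 and 1083 FPKM in the Cbx2-/- libraries, against 583, 565 and 528 FPKM in the wild-type libraries. Every Cbx2-/- value was above every wild-type value, with replicate 3 highest. The means were 884 ± 173 and 559 ± 27.8 FPKM, a ratio of 1.58. The difference of 0.65 ± 0.22 (log2, SE) did not pass (limma adjusted p = 0.0811, unadjusted p = 0.0182, 95% interval 0.14 to 1.15). It passed without Cbx2-/- replicate 3 (difference 0.49, adjusted p = 0.0191) and in limma without a mean-variance trend (adjusted p = 0.0368).

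Cstb (chromosome 10, 78425669 to 78427622 in GENCODE vM21), the gene of the cytosolic inhibitor cystatin B, was at 96.1, 90.2 and 68.9 FPKM in Cbx2-/- libraries and 63.9, 70.9 and 73.4 FPKM in wild-type libraries. Replicates 1 and 2 lay above all wild-type values and replicate 3 lay among them. The difference of 0.28 ± 0.18 (log2, SE) did not pass (limma adjusted p = 0.331), but without Cbx2-/- replicate 3 it was 0.42 and passed (adjusted p = 0.0267). The order of the Cbx2-/- libraries was thus the same for Cstb and Cst7, and the opposite one for Cst3.

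In GENCODE, Ctss lies on chromosome 3 (95526786 to 95556403), Ctsz on chromosome 2 (174427493 to 174439039), Ctsb on chromosome 14 (63122462 to 63145923), Ctsh on chromosome 9 (90054152 to 90076089) and Ctsc on chromosome 7 (88278085 to 88310888). Ctss, the gene of cathepsin S, an endopeptidase that also works at neutral pH, was at 139, 104 and 142 FPKM in Cbx2-/- libraries and 76.4, 106 and 98 FPKM in wild-type libraries. The groups overlapped through Cbx2-/- replicate 2. The difference was 0.45 ± 0.20 (log2, SE, limma adjusted p = 0.172, 95% interval -0.02 to 0.92). The Ctss locus is overlapped by the processed pseudogene Hmgb1-ps5 on the same strand, so its value is uncertain to that extent.

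Ctsz, the gene of the carboxypeptidase cathepsin X, also named Z, was at 182, 144 and 144 FPKM in Cbx2-/- libraries and 115, 132 and 148 FPKM in wild-type libraries. The groups overlapped, and the difference was 0.25 with a 95% interval of -0.19 to 0.68 (log2, limma adjusted p = 0.412). Its GENCODE locus is overlapped by Nelfcd on the other strand, so its value is uncertain unless the counting used strand, a setting the sources used here do not state. The deposited table's locus for Ctsz begins at 174415804, outside the GENCODE locus, which adds to that uncertainty.

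Ctsb, the gene of cathepsin B, an endopeptidase that also removes dipeptides from chain ends, was the only one of the 9 with a negative difference. Its level was 153, 143 and 151 FPKM in Cbx2-/- libraries and 175, 171 and 157 FPKM in wild-type libraries. The groups were separate but close, and the difference of -0.17 did not pass (log2, limma adjusted p = 0.526, 95% interval -0.53 to 0.20). Its locus is overlapped by Fdft1 on the other strand. The deposited table's locus for Ctsb runs to 63179578, past the GENCODE end at 63145923. The Ctsb value, and with it the small negative difference, is uncertain to that extent.

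Ctsh, the gene of the aminopeptidase cathepsin H, was at 46.5, 49.8 and 61.2 FPKM in Cbx2-/- libraries and 49.4, 48 and 53.6 FPKM in wild-type libraries. The ranges overlapped throughout, and the difference was 0.05 (log2, limma adjusted p = 0.87, 95% interval -0.32 to 0.42). Ctsc, the gene of the dipeptidyl peptidase cathepsin C, was at 42.5, 24.2 and 40.7 FPKM in Cbx2-/- libraries and 28.3, 36.2 and 28.8 FPKM in wild-type libraries. Replicate 2 was the lowest library of all, so the groups overlapped, and the difference was 0.16 with a 95% interval of -0.38 to 0.71 (log2, limma adjusted p = 0.689). It was 0.42 without Cbx2-/- replicate 2 and 0.024 without Cbx2-/- replicate 1, and neither passed. The Ctsc locus is overlapped by the long noncoding RNA gene Gm26522 on the other strand.

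**Figure D2:**
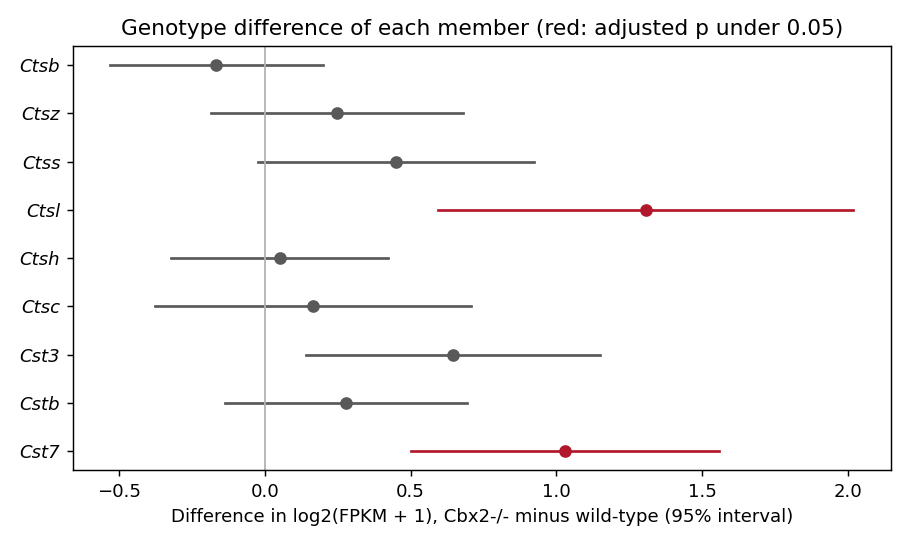
Difference in log2(FPKM + 1) between Cbx2-/- and wild-type marrow for each gene (points) with the 95% interval of the limma fit (lines), in red where the adjusted p was under 0.05. Ctsl at 1.31 and Cst7 at 1.03 are red, the interval of Cst3 lies above 0 without passing the adjusted threshold, and the intervals of the other 6 genes include 0.

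The order of levels, which FPKM gives per length, was the same in all 3 wild-type libraries. In Cbx2-/- marrow the means ran Cst3, Ctsz, Ctsb, Ctss, Ctsl, Cstb, Ctsh, Cst7 and Ctsc, and in wild-type marrow Cst3, Ctsb, Ctsz, Ctss, Cstb, Ctsh, Ctsl, Ctsc and Cst7. The ranges of neighbours in that order overlapped in 5 of 8 cases in Cbx2-/- marrow (Ctsz with Ctsb, Ctss with Ctsl, Ctsl with Cstb, Ctsh with Cst7, and Cst7 with Ctsc) and in 0 of 8 in wild-type marrow. Ctsl stood at place 5, 6 and 2 among the 9 genes in the Cbx2-/- libraries and at place 7 in each wild-type library.

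The make-up of the cathepsin transcripts is described without a test. The Ctsl share of the summed FPKM of the 6 cathepsins was 19.3%, 12.5% and 22.9% in the Cbx2-/- libraries, against 9.12%, 8.67% and 8.23% in the wild-type libraries. The share of Ctsb was 21.9%, 27% and 21.6% in the Cbx2-/- libraries, against 35.8%, 31.6% and 29.6% in the wild-type libraries, so each Cbx2-/- share was below each wild-type share. The share of Ctss was 19.6% to 20.3% in Cbx2-/- libraries and 15.7% to 19.6% in wild-type libraries. Shares of 1 sum move against each other by construction, so these are not separate changes.

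**Figure D3:**
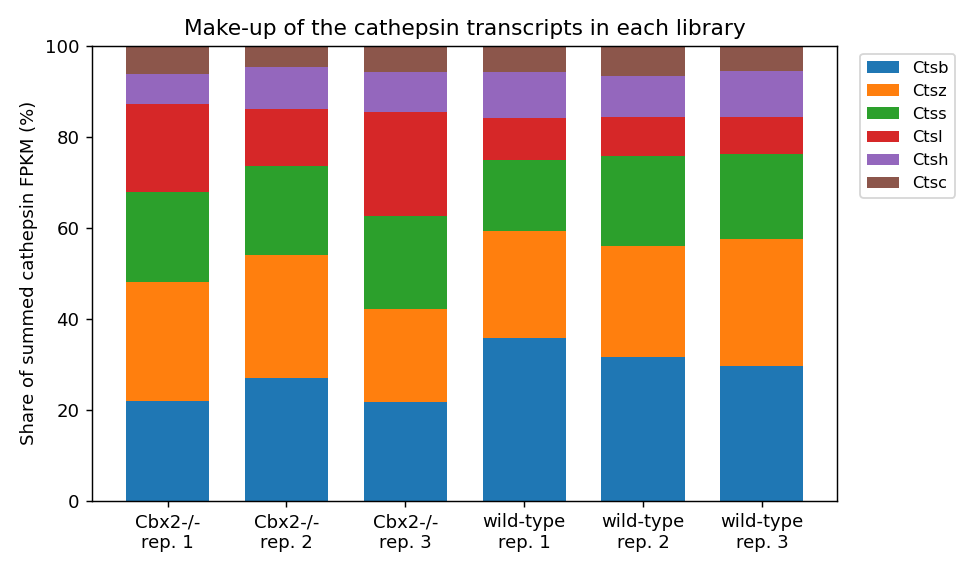
Share of each cathepsin in the summed FPKM of the 6 cathepsin genes (percent, stacked to 100), for 3 Cbx2-/- libraries on the left and 3 wild-type libraries on the right. The Ctsl share is 12.5% to 22.9% in Cbx2-/- libraries and 8.23% to 9.12% in wild-type libraries, and the Ctsb share is the lower one in Cbx2-/- libraries.

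Summed levels of enzyme and inhibitor transcripts were described without a test. The 6 cathepsins summed to 697, 531 and 698 FPKM in Cbx2-/- libraries and 488, 540 and 529 FPKM in wild-type libraries, with overlap through Cbx2-/- replicate 2. The 3 cystatins summed to 914, 955 and 1184 FPKM in Cbx2-/- libraries and 668, 660 and 623 FPKM in wild-type libraries, with no overlap. Cystatin transcripts per cathepsin transcript were 1.31, 1.80 and 1.70 in Cbx2-/- libraries and 1.37, 1.22 and 1.18 in wild-type libraries. Cbx2-/- replicate 1 thus lay within the wild-type range and replicates 2 and 3 above it. Cst3 made up 83.3% to 91.5% of the cystatin sum in Cbx2-/- libraries and 84.7% to 87.3% in wild-type libraries. The stefin A genes on chromosome 16, another family of cystatin type, summed over 8 genes to 2948, 3908 and 2372 FPKM in Cbx2-/- libraries and 184, 242 and 205 FPKM in wild-type libraries.

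Markers of the cells known to carry these genes differed as well. The counts that follow are read beside the 8.8% of all tested genes that were higher and the 8.31% that were lower. Of 17 macrophage markers, 9 rose and 0 fell in Cbx2-/- marrow (2 higher without wild-type replicate 1, 11 without Cbx2-/- replicate 3). Their sum was 1438, 1294 and 1626 FPKM in Cbx2-/- libraries against 766 to 909 FPKM in wild-type libraries. Of 10 monocyte markers, 5 rose and 0 fell (1 higher without Cbx2-/- replicate 1 or any wild-type replicate, 6 higher and 2 lower without Cbx2-/- replicate 3), with a sum of 781 to 869 FPKM in Cbx2-/- and 491 to 546 FPKM in wild-type libraries. The order of the Cbx2-/- libraries in the macrophage sum (replicate 3, then 1, then 2) was that of Ctsl. The monocyte, osteoclast, erythroid and B cell precursor sums had the same order, so it was not particular to macrophage markers. Nor did each macrophage marker have that order. C1qc had it, at 222, 188 and 307 FPKM in Cbx2-/- replicates 1, 2 and 3. Hmox1, the macrophage marker of highest mean, was lowest in replicate 3, at 360, 375 and 275 FPKM. Relative to the wild-type mean, the macrophage sum was 1.75, 1.58 and 1.98 in the Cbx2-/- libraries where Ctsl was 2.99, 1.48 and 3.55. In replicate 2 the values of Ctsl and of the macrophage sum were close, and in replicates 1 and 3 Ctsl was the higher one. None of the macrophage or monocyte markers in the table was at 0 in all libraries, and the part of these cells in the Ctsl result was not tested.

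Granulocyte marker sums, like Cst7, were lowest in replicate 3 among the Cbx2-/- libraries. So were the natural killer cell, dendritic cell and skeletal muscle marker sums. Of 8 promyelocyte markers, 5 rose and 0 fell (1 higher without wild-type replicate 2 or 3, 8 without Cbx2-/- replicate 3). Their sum was 5126, 4590 and 2437 FPKM in Cbx2-/- libraries and 1946 to 2155 FPKM in wild-type libraries. Most of that sum was Elane and Prtn3, which did not pass. The deposited table gives these genes 1 wide locus, shared with another promyelocyte marker that is counted as risen. The promyelocyte sum and that call are uncertain to that extent. Of 15 markers of maturing neutrophils, 7 rose and 0 fell (1 higher without wild-type replicate 2 or 3, 15 without Cbx2-/- replicate 3). Their sum was 79950, 86290 and 58631 FPKM in Cbx2-/- and 38972 to 44106 FPKM in wild-type libraries. Most of that sum was S100a8 and S100a9, and neither passed (limma adjusted p = 0.145 and 0.129). Some other neutrophil markers were highest in Cbx2-/- replicate 3, so the order of the sum was not that of each marker. Relative to the wild-type mean, the promyelocyte sum was 2.47, 2.21 and 1.17, the neutrophil sum 1.92, 2.07 and 1.41, and Cst7 2.53, 2.48 and 1.44 in the Cbx2-/- libraries. The sum of 8 natural killer cell markers, another source of cystatin F, was 91.5, 116 and 42.4 FPKM in Cbx2-/- and 65.4 to 67.5 FPKM in wild-type libraries, with 0 of 5 tested markers higher and 2 lower. Most of that sum was Nkg7, at 84.5, 106 and 34.9 FPKM in Cbx2-/- and 53.5 to 57.7 FPKM in wild-type libraries. The part of these cells in the Cst7 result was not tested.

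**Figure D4:**
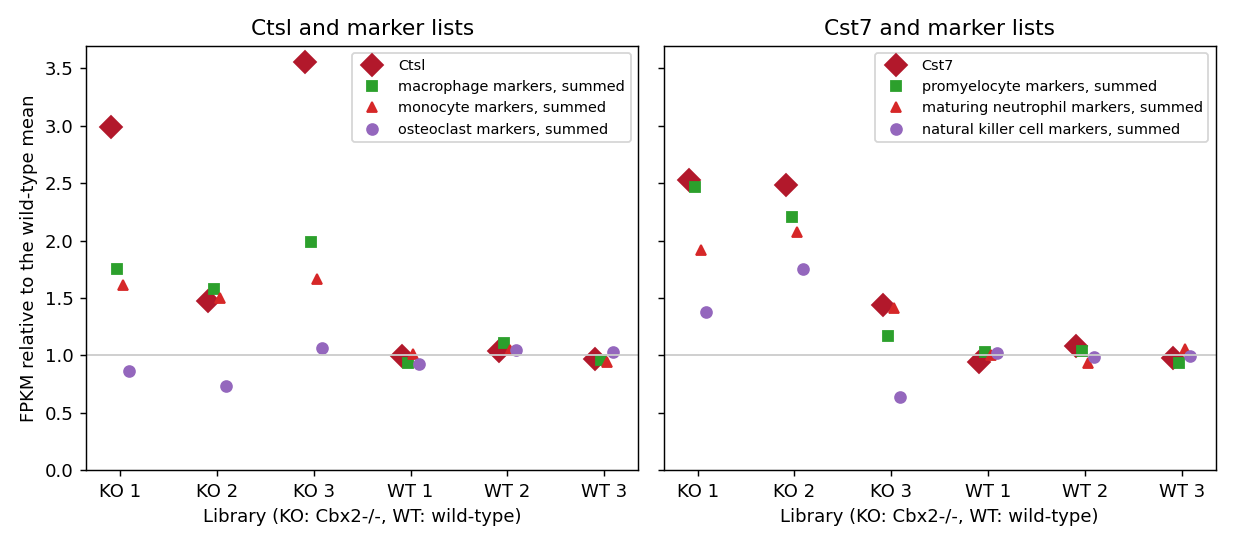
Ctsl (left) and Cst7 (right) as diamonds, beside summed markers of cell types, all as FPKM relative to the wild-type mean, in each Cbx2-/- library (KO) and each wild-type library (WT). Ctsl is highest in Cbx2-/- replicate 3, at 3.55, where the macrophage sum is also highest, at 1.98, while Cst7 is lowest there among the Cbx2-/- libraries, at 1.44, as is the promyelocyte sum, at 1.17. The monocyte and osteoclast sums are also highest in that library, at 1.67 and 1.06. The neutrophil and natural killer cell sums are lowest there among the Cbx2-/- libraries, at 1.41 and 0.64.

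Osteoclasts are the cells that give cathepsin K its place in bone. Ctsk, the collagen-degrading cathepsin of bone resorption, was at 135, 78.4 and 239 FPKM in Cbx2-/- libraries and 157, 226 and 211 FPKM in wild-type libraries. The groups overlapped, with Cbx2-/- replicate 3 above and replicates 1 and 2 below all wild-type values (limma adjusted p = 0.395). Of 9 tested osteoclast markers, 1 rose (Mmp9, a gelatinase gene that neutrophils also express, 1.71-fold) and 1 fell (Acp5, the tartrate-resistant phosphatase gene, to 0.571 of its wild-type mean). Mmp9 passed in 2 and Acp5 in 1 of the 6 fits with a library left out. The summed markers were 693 to 1001 FPKM in Cbx2-/- and 871 to 986 FPKM in wild-type libraries, overlapping.

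Of the 4 aspartic and serine proteases that carry the name cathepsin, 1 rose, 1 fell and 2 did not pass. Ctsg, the gene of the serine protease cathepsin G of primary granules, was at 588, 444 and 300 FPKM in Cbx2-/- libraries and 179, 156 and 142 FPKM in wild-type libraries, a rise of 1.43 ± 0.27 (log2, SE, limma adjusted p = 0.0109) that was lost in 2 of the 6 fits without 1 library. Ctse, the gene of the aspartic protease cathepsin E, was at 149, 240 and 116 FPKM in Cbx2-/- and 375, 371 and 312 FPKM in wild-type libraries, a fall with a difference of -1.12 (limma adjusted p = 0.0298, lost in 4 of the 6 fits). Of 10 erythroid markers, 5 fell and 0 rose in the same comparison (8 lower without Cbx2-/- replicate 3), and the part of red cell precursors in the Ctse result was not tested. Ctsd and Ctsa, the genes of cathepsin D and of protective protein cathepsin A, had separate groups but did not pass, with differences of 0.36 and 0.26 (limma adjusted p = 0.238 and 0.311).

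Of 5 tested further genes of the cysteine cathepsin family, 1 fell and 0 rose (2 lower and 1 higher without Cbx2-/- replicate 3). Ctsf, the gene of cathepsin F, was at 12.8, 14.8 and 19.1 FPKM in Cbx2-/- and 28.6, 22.1 and 25.8 FPKM in wild-type libraries (difference -0.69, limma adjusted p = 0.0374, lost in 5 of the 6 fits without 1 library). Tinagl1, a secreted relative without protease activity, was at 57 to 92.1 FPKM in Cbx2-/- and 37.6 to 45.4 FPKM in wild-type libraries and did not pass (limma adjusted p = 0.0577). Ctsw was at 3.2 to 4.5 FPKM in Cbx2-/- and 3.7 to 5.72 FPKM in wild-type libraries (limma adjusted p = 0.639). The rodent cathepsins known from placenta lie on chromosome 13 with Ctsl. Of the 10 cathepsin genes on this chromosome, the 9 other than Ctsl stayed under 1 FPKM, and 7 were listed at 0 in all libraries.

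Cst3 and Cst7 lie on chromosome 2 with 7 other genes of type 2 cystatins. These 7 (Cstl1, Cst8, Cst9, Cst10, Cst11, Cst12 and Cst13) were listed at 0 in all 6 libraries, so none of them was seen in either genotype. Of the other inhibitors with cystatin domains, Fetub, the fetuin B gene, was at 0.062, 0.142 and 0.066 FPKM in Cbx2-/- and 2.13, 1.68 and 1.61 FPKM in wild-type libraries, a fall at a low level with a difference of -1.36 on the log2(FPKM + 1) scale (limma adjusted p = 0.00145), past the threshold in each of the 6 fits without 1 library. Kng1 and Kng2, the kininogen genes, did not pass (limma adjusted p = 0.585 and 0.626).

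Cathepsin C activates granule proteases, and its own transcript did not pass. Of 5 tested genes of such proenzymes, Ctsg rose and the basophil protease gene Mcpt8 and the granzyme gene Gzma fell. Mcpt8 was at 18.8, 22.7 and 13.8 FPKM in Cbx2-/- and 37, 28.8 and 39.7 FPKM in wild-type libraries (limma adjusted p = 0.0239, lost in 3 of the 6 fits without 1 library), and Gzma was at 2.08 to 2.29 FPKM in Cbx2-/- and 2.97 to 3.67 FPKM in wild-type libraries (limma adjusted p = 0.049, lost in 5). Elane, the neutrophil elastase gene, was at 1517, 1504 and 778 FPKM in Cbx2-/- and 640, 701 and 625 FPKM in wild-type libraries (limma adjusted p = 0.0811). Prtn3, the proteinase 3 gene, was at 1523, 1148 and 548 FPKM in Cbx2-/- and 677, 664 and 604 FPKM in wild-type libraries (limma adjusted p = 0.3). The deposited table gives Elane and Prtn3 the same wide locus (chromosome 10, 79697305 to 80369637), so their values are uncertain to that extent. Cystatin F per cathepsin C transcript was 1.33, 2.29 and 0.792 in Cbx2-/- libraries and 0.745, 0.67 and 0.757 in wild-type libraries, above the wild-type range in each Cbx2-/- library. That ratio was not tested.

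Cathepsin S cuts the invariant chain, which Cd74 encodes. Cd74 was at 218, 229 and 309 FPKM in Cbx2-/- and 284, 388 and 500 FPKM in wild-type libraries and did not pass (limma adjusted p = 0.15). None of the 9 class II and invariant chain genes passed limma's adjusted p. In 3 the unadjusted limma p was under 0.05, with Cd74 and H2-Ob lower and H2-DMb1 higher in Cbx2-/- marrow. In the fit without Cbx2-/- replicate 3, 3 genes of this list were lower. Ctss per Cd74 transcript was 0.636, 0.454 and 0.459 in Cbx2-/- libraries and 0.269, 0.274 and 0.196 in wild-type libraries, without overlap of the groups. Neither gene passed by itself. The ratio was not tested, and how often ratios of other gene pairs separate the groups was not counted. B cells also express Cd74, and all 11 B cell precursor markers fell, with a sum of 109 to 210 FPKM in Cbx2-/- and 996 to 1251 FPKM in wild-type libraries. Of 6 tested dendritic cell markers, 0 rose and 1 fell. The part of these cells in the ratio was not tested.

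Beyond cathepsins, some genes of the lysosome rose, and others, among them its proton pump genes, did not pass. Of 43 tested hydrolases and activators, 7 rose, 1 fell (Acp5) and 35 did not pass, beside 8.8% higher and 8.31% lower over all tested genes, with a median difference of 0.30 (log2). Without wild-type replicate 1 or 3 the count of higher genes was 0, and without Cbx2-/- replicate 3 it was 16, with 3 lower. Lgmn, the gene of legumain, a cysteine protease that can process cathepsin proenzymes and that some cystatins also inhibit, rose to 109, 73.3 and 104 FPKM in Cbx2-/- libraries, against 51.9, 56.1 and 52.9 FPKM in wild-type libraries (limma adjusted p = 0.0261, lost in 4 of the 6 fits without 1 library). As with Ctsl, replicate 2 was the Cbx2-/- library closest to wild-type. Man2b1, the lysosomal alpha-mannosidase gene, rose 1.89-fold, Galns, a sulfatase gene, 1.60-fold and Neu1, the sialidase gene, 1.49-fold, with calls lost in 3, 4 and 5 of those fits. Psap, the saposin precursor gene, was at 614 to 695 FPKM in Cbx2-/- and 510 to 626 FPKM in wild-type libraries (limma adjusted p = 0.638), and Ifi30, a lysosomal thiol reductase gene, was at 95.8 to 136 FPKM in Cbx2-/- and 159 to 188 FPKM in wild-type libraries (limma adjusted p = 0.0796).

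Of 18 lysosomal membrane protein genes, 5 rose and 0 fell, beside 8.8% higher over all tested genes, with a median of 0.32 (log2). The count of higher genes was 1 without wild-type replicate 2 and 8 without Cbx2-/- replicate 3. Hgsnat, the gene of a heparan sulfate acetyltransferase, rose to 29.6, 30.7 and 25.7 FPKM in Cbx2-/- libraries, against 8, 12.5 and 9.84 FPKM in wild-type libraries (limma adjusted p = 0.00268), and it passed in each of the 6 fits without 1 library. Cd68, a glycoprotein gene of phagocytes, rose 1.73-fold and Scarb2, the receptor gene that carries glucocerebrosidase, 1.48-fold. Abca2, a lipid transporter gene, rose 1.95-fold. These 3 calls were lost in 3, 4 and 1 of the 6 fits without 1 library. Cd63 and Laptm5 did not pass (log2 differences of 0.04 and 0.27).

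None of the 18 tested proton pump subunit genes passed limma's adjusted p, beside 8.8% higher and 8.31% lower over all tested genes. The widest spread was that of a gene at 0.038 to 256 FPKM in Cbx2-/- and 0.096 to 351 FPKM in wild-type libraries. With a difference of -2.37 ± 2.60 (log2, SE), the test said little about that gene. In this list 1 gene had an unadjusted limma p under 0.05, and 1 was lower without Cbx2-/- replicate 3. The median difference was -0.07 (log2), and Tcirg1, a pump subunit gene used in osteoclasts and immune cells, was at 63.4 to 81.6 FPKM in Cbx2-/- and 51.7 to 56.6 FPKM in wild-type libraries (limma adjusted p = 0.152). Of 14 genes that sort hydrolases to the lysosome, Sort1, the sortilin gene, rose to 28.3, 27.9 and 30.5 FPKM in Cbx2-/- libraries, against 16.7, 15.8 and 14 FPKM in wild-type libraries (limma adjusted p = 0.00593), and the other 13 did not pass (4 genes were higher without Cbx2-/- replicate 3). M6pr, the gene of the smaller mannose 6-phosphate receptor, was at 58.4 to 92.1 FPKM in Cbx2-/- and 62.5 to 71.7 FPKM in wild-type libraries (limma adjusted p = 0.447).

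Of the transcription factor genes of the family that reads the E-box in lysosomal promoters, Tfec rose and Tfeb and Tfe3 did not pass. Tfec, the member known from macrophages and osteoclasts, was at 10.7, 11.7 and 13.1 FPKM in Cbx2-/- and 8.43, 7.66 and 6.95 FPKM in wild-type libraries (limma adjusted p = 0.0271, lost in 5 of the 6 fits without 1 library). Tfeb was at 17 to 21.9 FPKM in Cbx2-/- and 20.4 to 23 FPKM in wild-type libraries. Mitf was under the filter, at most 1.03 FPKM.

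**Figure D5:**
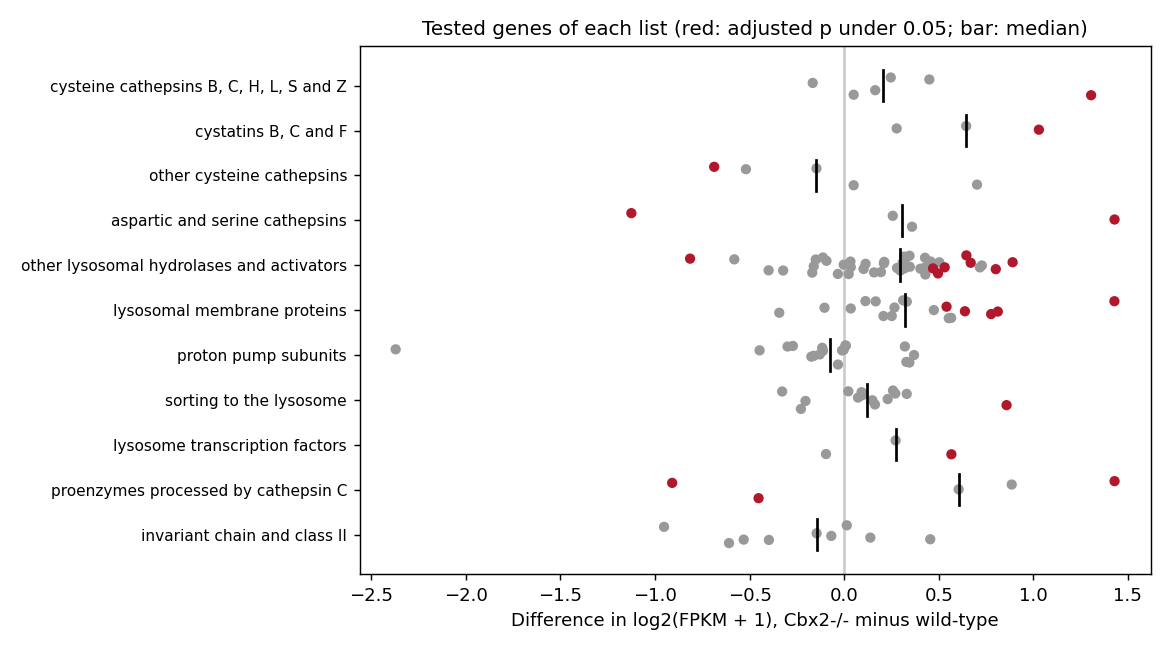
Difference in log2(FPKM + 1), Cbx2-/- minus wild-type, of each tested gene of 11 gene lists (points, red where the adjusted p was under 0.05) with the median of each list (bar). Red points lie to the right for lysosomal membrane proteins (5 of 18) and mostly so for hydrolases (7 right, 1 left of 43), and there are 0 among 18 proton pump subunits and 9 class II and invariant chain genes. Over all tested genes, 8.8% were higher and 8.31% lower.

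Genes whose pattern over the 6 libraries was nearest to that of each cathepsin or cystatin were sought among tested genes averaging at least 10 FPKM. These were 5950 before gene models without a known name were left out. The measure was the root mean square distance of centred log2(FPKM + 1) values. Nearest to Ctsl, at 0.13, was Cd300lf, a receptor gene of myeloid cells, at 43.3, 25.4 and 48.5 FPKM in Cbx2-/- and 14.8, 14.1 and 15.6 FPKM in wild-type libraries, followed by Cyp1b1 at 0.16. Nearest to Cst7 were Wfdc21, at 0.085, and Mpo, the myeloperoxidase gene of primary granules, at 0.086. Mpo was at 1047, 1077 and 550 FPKM in Cbx2-/- and 443, 482 and 418 FPKM in wild-type libraries. Cst3 lay nearest to Cln3, a lysosomal membrane protein gene, at 0.036, and to Zbtb7b at 0.043. Nearest to Ctss was Ankrd44, at 0.079. For Ctsc the nearest genes were Pim1 and Zfp36, and for Ctsb Ap2b1 and Purb. For Ctsh they were Kdm3b and Rabep2, for Ctsz Pqlc3 and Gas5, and for Cstb Pigs and Vti1b. Within the 9 genes, Ctsz and Cstb were the closest pair, at 0.12.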

How the data were processed

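Bone marrow RNA of 3 Cbx2-/- and 3 wild-type mice was read as 50-base single-end reads from stranded poly(A) libraries on a HiSeq 1000, per the labels' protocols. The authors deposited FPKM values per gene. FastQC 0.11.5, TopHat2 2.1.0, Cufflinks 2.2.1 and mm10 are named, without roles or settings, per the submitters' processing notes. Read totals are unknown; low values gave a depth relative to wild-type replicate 1 of 0.914 to 1.22 (877 to 1134 genes under 0.15 FPKM). Genes with at least 1 FPKM in 3 of 6 libraries were tested on log2(FPKM + 1), which understates changes of low genes, with limma 3.58.1 (R 4.3.3, mean-variance trend, two-sided, Benjamini-Hochberg over 12006 genes, threshold 0.05, 95% intervals). The fitting code was also run on simulated data with equal spread in both genotypes, which is no evidence for the calls given here. Limma p-values rest on the spread between 3 animals per genotype, pooled over both genotypes and moderated toward the trend over all tested genes. Tables and figures used pandas 2.3.3 and matplotlib 3.10.9.

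The 9 genes and all lists were chosen with earlier results of these data known. Named from each list were up to 4 genes of lowest adjusted p and up to 2 of highest FPKM that did not pass, lists of up to 6 genes whole, and per cathepsin or cystatin the 2 nearest patterns (for Ctss, 1 is not reported here). Promoters came from RefSeq (GRCm38.p6), loci and overlaps from GENCODE. Alternatives changed the pseudocount, filter, scaling, limma settings, replicate block and libraries.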

Additional observations from a re-analysis of the deposited data

How the results depend on the processing

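Differences are log2, Cbx2-/- minus wild-type, with limma adjusted p. Leaving out 1 library in turn gave 367 to 2069 higher and 475 to 1719 lower genes, and ranges of 1.06 to 1.68 for Ctsl, 0.89 to 1.29 for Cst7, 0.49 to 0.74 for Cst3, 0.18 to 0.42 for Cstb, 0.024 to 0.42 for Ctsc, 0.13 to 0.33 for Ctsz, 0.31 to 0.59 for Ctss and -0.063 to 0.13 for Ctsh, which turned negative without Cbx2-/- replicate 3. Without a filter, Ctsl stayed at 1.31 but did not pass (0.0536), with more genes tested. Without a trend, Cst3 at 0.65 passed (0.0368). Without Cbx2-/- replicates 1 and 2, 1 Cbx2-/- library stood against 3 wild-type libraries and was assumed to vary as they do, so these values are no test of the genotype: 2047 genes were higher and 2714 lower, Cst3 was 0.95, Ctss 0.61 and Cstb -0.0083. Without replicate 1 of both genotypes, 42 genes were higher and 96 lower, Ctsl was 1.17 and Cst7 0.85, neither passing, and Ctsc was -0.037. Apart from fewer libraries, the cause of these shifts was not tested. Deviations of same-numbered libraries correlated with r of 0.19, -0.18 and -0.10, and those of differently numbered libraries with r of -0.26 to 0.27. With 3 libraries per genotype this cannot decide whether the numbers pair them, and replicate 1 of both genotypes had Y-linked transcripts. With a replicate block, 634 genes were higher and 734 lower, and Ctsl at 1.31 (0.0397) and Cst7 at 1.03 (0.0328) passed. Read depth is unknown, so no counting error is given.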
